A study of Oreochromis niloticus with 8 samples.

Results

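Ion channels and pumps set the excitability of nerve cells, and this account follows the voltage-gated sodium and calcium channel subunits, the acid-sensing, HCN, TRP, polycystin and Piezo cation channels, the ryanodine receptor and Orai calcium channels, the CLC and anoctamin chloride channels and the sodium pump subunits of the Nile tilapia midbrain after cold exposure. They were chosen by name: the 56 rows of the deposited lists whose gene identifier begins with the symbol of such a family, of which 49 had a mean of 1 TPM or more in the cold or the control group and are the members described here, out of 29533 rows in all. The other 7 (ano9, cacna1s, cacng1, cacng6, clcn1, pkd1l1 and trpv4) stayed below 1 TPM in both groups. TPM is an abundance scaled by gene length and by the library total (each library sums to 1000000), so levels can be set side by side between genes. The midbrains came from Nile tilapia (Oreochromis niloticus), a warm-water fish, in 4 libraries from cold-exposed fish (cold) and 4 from fish kept at normothermy (control). The sources used here give no strain, age, sex, temperature or length of exposure. They do not say either that the libraries of a group are separate fish, and the p-values below refer to the spread among the 8 libraries, which may be technical.

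Voltage-gated sodium channels carry the rising phase of the action potential, and voltage-gated calcium channels couple it to transmitter release and to signalling inside the cell. Each is built from a large pore-forming subunit, and smaller subunits change its gating and bring it to the membrane. HCN channels open on hyperpolarization and pace rhythmic firing, ryanodine receptors release calcium from the endoplasmic reticulum, Orai channels refill that store, and TRP channels pass cations in response to receptors, chemicals or temperature. CLC and anoctamin proteins move chloride or lipids across the plasma membrane and across organelle membranes, and the sodium pump restores the sodium and potassium gradients on which all of them depend.

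More of the called members were lower than higher after cold exposure. By limma on log2(TPM + 1), at an adjusted p under 0.05, 16 of 49 members fell (32.7%), against 23.6% of all 18863 genes tested, and 1 rose (2.04%), against 13.0% of all genes. The fall of trpm5 is that of a gene that passed the 1 TPM filter through the control group alone, and among the 48 members at 1 TPM or more in both groups 15 fell (31.2%). Members called in either direction came to 34.7%, close to the 36.7% of all genes. The falls were those of hcn2, clcn2, cacna2d1, trpm5, cacnb2, asic1, piezo1, clcn6, scn3b, ryr3, ryr2, orai1, hcn4, cacnb3, asic4 and ano3, and the rise was that of trpc1. The changes were moderate: log2 changes (cold minus control after adding 1 TPM, an addition that shrinks the changes of low genes) lay between -0.67 and 0.28, and none reached 2-fold on that scale. The median log2 change was -0.22 over the members and -0.089 over all genes tested, and 38 of 49 members had a negative value (77.6%, against 60.1% of all genes). After median-of-ratios scaling, 2 members rose (4.08%, against 18.2% of all genes) and 10 fell (20.4%, against 17.3% of all genes), and called members were 83.3% lower, against 94.1% as deposited. Among all called genes 48.7% were lower after that scaling, against 64.5% as deposited. Without cold 2 and control 4, the 2 libraries that stood apart from the rest, 9 members fell by limma (18.4%, near the 18.5% of all genes) and 0 rose (against 10.9% of all genes). The 10 falls after scaling and these 9 falls both still include trpm5.

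**Figure D1:**
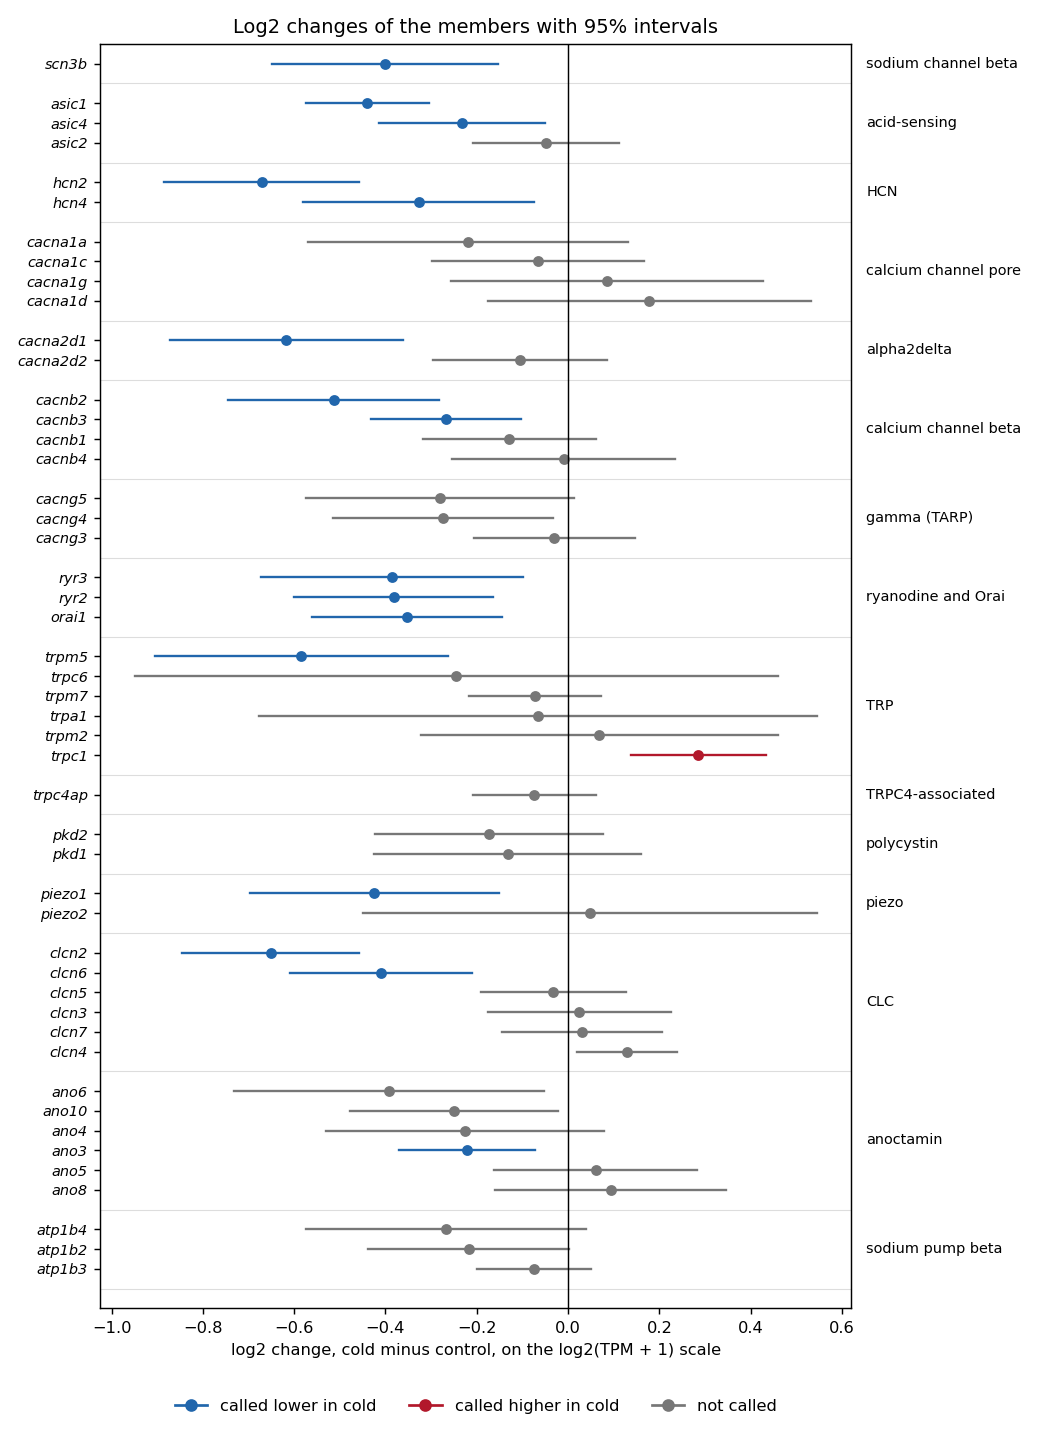
Log2 changes of 48 of the 49 members, as the cold mean minus the control mean of log2(TPM + 1), with its 95% interval from limma (not adjusted for the number of genes), grouped by role; blue marks members called lower in cold, red the member called higher and grey those not called. The blue points run from -0.67 for hcn2 to -0.22 for ano3, and the single red point is trpc1 at 0.28.

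Group values did not overlap for 19 of 49 members (38.8%), against 36.9% of all genes. Of the 49 members 17 were lower in cold in every library, against 23.4% of all genes, and 2 were higher, against 13.4% of all genes. The 17 include trpm5, which passed the 1 TPM filter through the control group alone, so its separation bears on that filter. The 19 without overlap are named here. They are every called member except scn3b, and also clcn4, cacng4 and atp1b4, which limma did not call. For each of the 16 called members without overlap a two-sided exact permutation test gave p = 0.0286, the smallest that 4 libraries against 4 allow, and for scn3b it gave 0.0571. That smallest value follows from the lack of overlap, so the test adds nothing to it, and clcn4, cacng4 and atp1b4 had it too. Of the 17 calls, 7 (asic1, cacna2d1, cacnb2, clcn2, clcn6, hcn2 and ryr2) held under all 18 alternative settings. Nearest the 1 TPM threshold, trpm5 (0.711 ± 0.152 TPM in cold and 1.57 ± 0.248 TPM in control) and piezo2 (1.52 ± 0.490 TPM in cold and 1.46 ± 0.636 TPM in control) lay inside, trpm5 through the control group alone, and cacng6 (0.704 ± 0.445 TPM in cold and 0.863 ± 0.254 TPM in control) and cacng1 (0.548 ± 0.400 TPM in cold and 0.754 ± 0.203 TPM in control) lay outside (SD, n = 4 each).

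**Figure D2:**
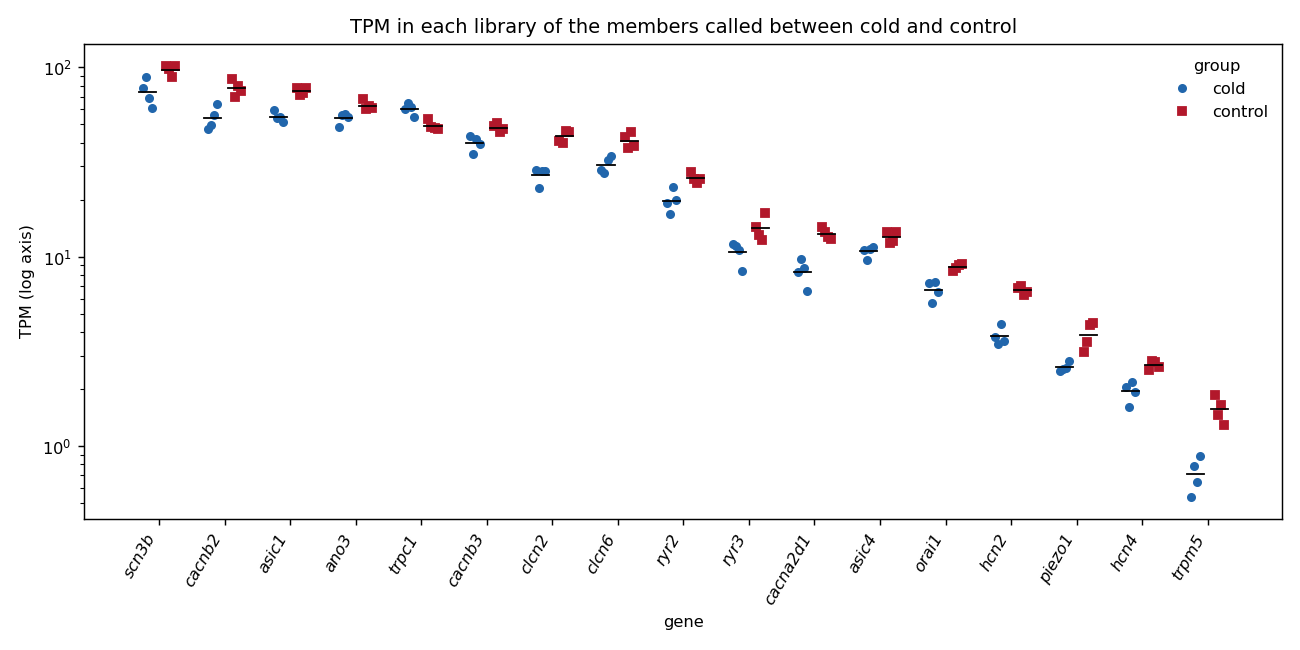
TPM (log axis) of the 17 called members in each library, ordered by their control mean; blue circles are the 4 cold libraries, red squares the 4 control libraries and black bars the group means. The cold values lie below all control values except in scn3b, where the groups overlap, and in trpc1, where the cold values lie above.

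Between 17842 and 18506 genes reached 1 TPM in a library, and the depth behind the TPM values is unknown. On the second principal component of all genes cold 2 (33.3) and control 4 (31.3) stood apart from the other 6 libraries (-22.9 to 2.67). Cell type markers are set beside all genes, of which 23.6% were called lower and 13.0% higher. With so few markers in each list, nothing is read from their counts. Of the neuronal marker list 1 of 5 genes fell (elavl3, 124 TPM in cold against 165 TPM in control) and 0 rose, with sums of 4279 to 4782 TPM in cold and 4459.9 to 4830.3 TPM in control. Both tested microglial markers (csf1r and irf8) fell, with sums of 14.0 to 18.9 TPM in cold and 21.8 to 28.6 TPM in control, as did 2 of 4 endothelial markers (84.3 to 103 TPM in cold and 99.3 to 148 TPM in control), 1 of 5 oligodendrocyte markers (sox10; 1729.8 to 2003 TPM in cold and 1542 to 2031 TPM in control), 1 of 3 pituitary (13.3 to 27.2 TPM in cold and 24.5 to 27.9 TPM in control), 1 of 3 retinal (2.97 to 16.9 TPM in cold and 5.40 to 23.8 TPM in control) and 1 of 3 telencephalic markers (3.09 to 23.5 TPM in cold and 4.20 to 7.05 TPM in control). None of the 3 astroglial, 1 red cell, 2 skeletal muscle or 2 ependymal markers was called, and their sums were 2811 to 3921 TPM in cold and 3079 to 3492 TPM in control, 3.23 to 6.30 TPM in cold and 3.24 to 8.83 TPM in control, 4.89 to 6.92 TPM in cold and 3.47 to 10.5 TPM in control and 5.60 to 7.39 TPM in cold and 5.16 to 9.68 TPM in control. The midbrain markers th and pax7 were present and both fell (9.46 to 13.8 TPM in cold and 15.2 to 20.4 TPM in control for the list), while the hindbrain list reached at most 1.06 TPM. No marker present in the lists was at 0 in all libraries. The hypothalamic and preoptic list summed to 386 to 4609.8 TPM in cold and 270.1 to 1356 TPM in control, most of it from oxt, with 0 of 2 genes called. The calls of vwf (endothelium), pde6c (retina), emx2 (telencephalon) and pax7 were lost in 6, 6, 6 and 5 of the 8 omissions of a single library (limma adjusted p up to 0.0913, 0.115, 0.0971 and 0.0873) and after median-of-ratios scaling (0.0667, 0.0631, 0.0666 and 0.0514). Those of th and csf1r were lost without cold 2 and control 4 together (limma adjusted p = 0.0774 and 0.0621). The retinal pde6c passed the 1 TPM filter through the control group alone (0.580 ± 0.210 TPM in cold and 1.25 ± 0.383 TPM in control). The part of these cell types in the results was not tested, and in bulk tissue fewer cells of a type and less RNA per cell cannot be told apart.

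No pore-forming sodium channel subunit is among the members, since those rows carry numeric identifiers (described further on), and of the beta subunits scn3b fell. Beta subunits are single-span membrane proteins that modulate the gating and surface level of sodium channels. In the cold libraries 1 to 4 scn3b had 78.0, 88.6, 68.7 and 60.8 TPM, against 102, 97.4, 88.3 and 101 TPM in control libraries 1 to 4. Cold 2 lay just inside the control range, above control 3, and the other 3 cold libraries lay below it. The log2 change was -0.40 ± 0.11 (SE, limma adjusted p = 0.0193). This call was lost without cold 3 (0.0519) and after median-of-ratios scaling (0.0719), these being limma adjusted p.

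Among acid-sensing channels, sodium channels opened by protons outside the cell, asic1 and asic4 fell and asic2 was not called. These are 2 of 3 lower and 0 higher, against 23.6% and 13.0% of all genes, and nothing is read from so few. For asic1, the main proton-gated subunit of the mammalian brain, the cold libraries held 59.8, 53.9, 54.7 and 51.4 TPM, against 77.3, 71.7, 73.0 and 77.3 TPM in the control libraries. The highest cold library, cold 1, lay well below the lowest control library, control 2. The mean was 55.0 ± 3.53 TPM in cold and 74.8 ± 2.90 TPM in control (SD, n = 4 each), a log2 change of -0.44 ± 0.059 (limma adjusted p = 6.74e-04). The asic4 product, which in mammals does not form a proton-gated channel by itself, was measured at 10.8, 9.62, 11 and 11.3 TPM in cold libraries and 13.5, 11.8, 12.1 and 13.6 TPM in control libraries. These groups came close without overlapping, and the log2 change was -0.23 ± 0.080 (limma adjusted p = 0.0488). The asic4 call was lost whichever library was left out (limma adjusted p between 0.0523 and 0.117), without cold 2 and control 4 together (0.202), after median-of-ratios scaling (0.156) and with no filter on low values (0.0747). For asic2 the values ran from 30.1 to 36.0 TPM in cold and 32.2 to 36.4 TPM in control, with a 95% interval of the log2 change from -0.21 to 0.11.

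Both HCN members fell, against 23.6% of all genes. For hcn2, which carries much of the pacemaker current of mammalian neurons, the 4 cold libraries had 3.77, 3.44, 4.39 and 3.61 TPM, against 6.80, 6.99, 6.26 and 6.49 TPM in the 4 control libraries. No cold library came near the control range, and the log2 change was -0.67 ± 0.094 (limma adjusted p = 8.38e-04). Its size was the largest of the members with 1 TPM added, but not with 0.1 TPM added (hcn2 -0.79, trpm5 -1.05) or with 5 TPM added (hcn2 -0.40, clcn2 -0.58). For hcn4, known as the main pacemaker subunit of the mammalian heart, the values were 2.06, 1.61, 2.18 and 1.93 TPM in cold and 2.54, 2.80, 2.78 and 2.62 TPM in control. The cold libraries again lay below all control libraries, but the gap was small and both groups were low (log2 change -0.33 ± 0.11, limma adjusted p = 0.0470). Leaving out any 1 of the 8 libraries ended the hcn4 call (limma adjusted p between 0.0566 and 0.104), as did median-of-ratios scaling (0.0901), the omission of cold 2 and control 4 together (0.123), no filter on low values (0.0691) and the sum with its LOC copy (0.0723).

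None of the 4 calcium channel pore subunits among the members was called by limma at an adjusted p under 0.05, and none had an unadjusted p under 0.05. Of 7 further pore rows, which carry numeric identifiers, limma called 3 lower and 0 higher (23.6% and 13.0% of all genes). The most abundant was cacna1a, the P/Q-type pore of presynaptic endings, with 86.9, 104, 118 and 156 TPM in the cold libraries against 147, 127, 134 and 123 TPM in the control libraries. Its cold libraries ran from well below the control range (cold 1) to above it (cold 4), so the groups overlapped (log2 change -0.22 ± 0.16, limma adjusted p = 0.302). Without cold 4 the log2 change was -0.37 and passed (limma adjusted p = 0.0312). The L-type pores cacna1c (31.3 ± 1.67 TPM in cold and 33.1 ± 5.01 TPM in control) and cacna1d (10.2 ± 2.73 TPM in cold and 8.70 ± 0.676 TPM in control) and the T-type pore cacna1g (11 ± 3.07 TPM in cold and 10.1 ± 0.320 TPM in control) overlapped between groups too (SD, n = 4 each). In cold 2 cacna1d (14.1 TPM) and cacna1g (15.6 TPM) were the highest of all 8 libraries, while the other 3 cold libraries held 7.65 to 9.58 TPM and 8.93 to 9.98 TPM. The 95% intervals of the log2 changes, -0.30 to 0.17 for cacna1c, -0.17 to 0.53 for cacna1d and -0.26 to 0.43 for cacna1g, leave room for changes in both directions. Among the further pore rows called lower was cacna1da (LOC100693494), so named in the RefSeq gene table. It had 25.5 ± 3.02 TPM in cold and 31.8 ± 2.53 TPM in control (limma adjusted p = 0.0313). Its call held in 3 of the 8 omissions of a single library and was lost after median-of-ratios scaling (0.0758). Summed with that row, cacna1d had a log2 change of -0.18 and was not called.

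Of the accessory subunits of these channels, limma called 1 of 2 alpha2delta and 2 of 4 beta members lower and 0 higher. Among all genes 23.6% were called lower and 13.0% higher. Of 5 further alpha2delta and 2 further beta rows, which carry numeric identifiers, it called 2 and 1 lower and 0 higher. With so few genes, nothing is read from these counts. Alpha2delta subunits sit outside the membrane and raise the number of calcium channels at the surface, and cacna2d1 is the main target of the gabapentinoid drugs. For cacna2d1 the cold libraries had 8.34, 9.77, 8.70 and 6.56 TPM, against 14.4, 13.5, 12.7 and 12.4 TPM in the control libraries. The groups were well separated, and cold 4 was the lowest (log2 change -0.62 ± 0.11, limma adjusted p = 0.00310). The far more abundant cacna2d2 had 73.4, 64.5, 71.0 and 62.6 TPM in cold and 79.0, 68.5, 65.4 and 80.0 TPM in control. Its groups overlapped (log2 change -0.11 ± 0.084, limma adjusted p = 0.357). When the row named cacna2d2b in the RefSeq table was added to it, the sum was called lower (log2 change -0.24, limma adjusted p = 0.0169). By itself cacna2d2b was called lower (limma adjusted p = 0.0294). That call held in 4 of the 8 omissions of a single library. It was lost after median-of-ratios scaling (0.0724) and without cold 2 and control 4 together (0.0635). The share of cacna2d1 in the summed TPM of cacna2d1 and cacna2d2 averaged 10.9% in cold and 15.4% in control.

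Beta subunits bind the pore protein inside the cell and are needed for its transport to the membrane. Among them cacnb2 fell, with 47.4, 49.5, 56.2 and 63.6 TPM in the cold libraries against 86.3, 69.6, 79.2 and 74.9 TPM in the control libraries. The highest cold library (cold 4) stayed below the lowest control library (control 2), and the log2 change was -0.51 ± 0.10 (limma adjusted p = 0.00456). For cacnb3, which also fell, the cold libraries held 43.3, 35.0, 41.7 and 39.4 TPM and the control libraries 48.9, 50.5, 45.8 and 47.2 TPM. The difference was smaller (log2 change -0.27 ± 0.073, limma adjusted p = 0.0193), and the call was lost without control 2 (0.0533), after median-of-ratios scaling (0.0810) and without cold 2 and control 4 together (0.0522). The most abundant beta subunit, cacnb1, had 89.7, 75.2, 83.4 and 69.3 TPM in cold and 94.1, 84.8, 83.6 and 84.0 TPM in control, with overlap (log2 change -0.13 ± 0.084, limma adjusted p = 0.260). Values of cacnb4 ran from 39.3 to 48.8 TPM in cold and 39.1 to 52.7 TPM in control (95% interval of the log2 change -0.25 to 0.23). Of the summed TPM of the 4 beta subunits, cacnb2 made up 21.2 to 30.1% in cold libraries and 28.5 to 31.8% in control libraries, and that sum was 208 to 224 TPM in cold and 244 to 282 TPM in control.

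The 3 gamma members belong to the TARP branch, which in mammals attends AMPA-type glutamate receptors, and limma called 0 of them (unadjusted p was under 0.05 for cacng4 alone). Of these 3 the highest was cacng3, with 26.8, 24.3, 26.7 and 24.9 TPM in the cold libraries and 27.3, 28.0, 22.7 and 27.2 TPM in the control libraries. Its 95% interval of the log2 change ran from -0.21 to 0.15. For cacng4 all cold libraries (8.57 to 11.3 TPM) lay below all control libraries (11.6 to 13.8 TPM), with a log2 change of -0.27 ± 0.11 and a limma adjusted p of 0.0726. For cacng5 the ranges were 18.8 to 28.0 TPM in cold and 24.7 to 33.9 TPM in control, with overlap (log2 change -0.28 ± 0.13, limma adjusted p = 0.123). It passed without cold 1 (limma adjusted p = 0.0458). Of 9 further gamma rows, which carry numeric identifiers, limma called 2 lower and 1 higher (23.6% and 13.0% of all genes). The falls, named after their values were seen, were those of cacng8a (LOC100708375) and cacng8b (LOC100699762). The row of cacng8a had 97.4 TPM in cold and 125 TPM in control (limma adjusted p = 0.0188), and cacng8b 32.4 and 39.9 TPM (0.0435). Their calls held in 7 and 1 of the 8 omissions of a single library and were lost after median-of-ratios scaling (0.0756 and 0.102).

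All 3 members of intracellular calcium release and store refilling were called lower, against 23.6% of all genes, though the calls differed in how well they held. For ryr2, the ryanodine receptor known from heart and brain, the cold libraries had 19.1, 16.8, 23.3 and 19.9 TPM, against 28.0, 25.7, 24.5 and 25.6 TPM in the control libraries. Cold 3 came closest to the control range and cold 2 was lowest (log2 change -0.38 ± 0.096, limma adjusted p = 0.0137). For ryr3, another brain ryanodine receptor, the values were 11.7, 11.4, 10.9 and 8.38 TPM in cold and 14.3, 13.0, 12.3 and 16.9 TPM in control. Cold 4 was the lowest library and control 4 the highest, and cold 1 came close to control 3 (log2 change -0.39 ± 0.13, limma adjusted p = 0.0406). The ryr3 call was lost without cold 2 (0.0504), cold 3 (0.0704), cold 4 (0.0799), control 1 (0.0844), control 2 (0.0563) and control 4 (0.0963) (limma adjusted p in parentheses), without cold 2 and control 4 together (0.0979), after median-of-ratios scaling (0.106) and with no filter on low values (0.0627). For orai1, the pore of store-operated calcium entry, the cold libraries held 7.24, 5.71, 7.36 and 6.49 TPM and the control libraries 8.37, 8.71, 8.99 and 9.15 TPM. The groups did not overlap and the log2 change was -0.35 ± 0.092 (limma adjusted p = 0.0158). The call was lost without cold 2 and control 4 together (0.0653). Of 2 further rows of these families, which carry numeric identifiers, ryr1b fell (described further on) and orai2 (LOC100693724) was not called. The row of orai2 had 13.8 ± 1.14 TPM in cold and 13.7 ± 0.706 TPM in control (limma adjusted p = 0.965).

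Of 6 TRP channel members limma called 1 higher, trpc1, and 1 lower, trpm5 (13.0% and 23.6% of all genes). The latter entered through the control group alone. The product of trpc1 forms receptor-operated cation channels with other TRPC subunits. Its cold libraries had 59.9, 64.6, 61.4 and 54.9 TPM, against 53.2, 48.5, 47.8 and 47.3 TPM in the control libraries. Cold 4 was the lowest of the cold group and still exceeded control 1, the highest control library. The mean was 60.2 ± 4.07 TPM in cold and 49.2 ± 2.70 TPM in control (SD, n = 4 each), a log2 change of 0.28 ± 0.065 (limma adjusted p = 0.00899), and the call was lost without cold 2 and control 4 together (0.0511). Expression of trpc1 made up 68.6% of the summed TPM of the TRP members in cold and 62.3% in control. The gene trpm5, which encodes a calcium-activated cation channel known from taste cells, was near the 1 TPM threshold, with 0.537, 0.781, 0.644 and 0.883 TPM in cold and 1.86, 1.47, 1.65 and 1.29 TPM in control. All cold libraries were below 1 TPM and all control libraries above it. Since only its control level brought trpm5 over the 1 TPM filter, these values are given as a description (log2 change -0.58 ± 0.14). Of 8 further TRP rows, which carry numeric identifiers and are not in the sum above, limma called 3 lower and 1 higher. Besides trpm1b, the falls, named after their values were seen, were those of trpm3 (LOC100708457) and trpc4a (LOC100695568). The row of trpm3 had 21.0 TPM in cold and 34.2 TPM in control (limma adjusted p = 0.0202), and trpc4a 17.4 and 22.7 TPM (0.0414). Their calls held in 6 and 2 of the 8 omissions of a single library, and that of trpc4a was lost after median-of-ratios scaling (0.104).

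The other 4 TRP channel members were not called. For trpa1, an irritant sensor that responds to temperature in several animals, the cold libraries held 9.78, 4.23, 7.23 and 5.42 TPM and the control libraries 10.3, 6.18, 7.25 and 4.33 TPM. Each group spread more than 2-fold, library 1 was highest and the libraries that stood apart, cold 2 and control 4, were lowest, and the 95% interval of the log2 change ran from -0.68 to 0.55 (limma adjusted p = 0.871). The TRPC subunit gene trpc6 varied even more, from 1.19 to 4.45 TPM in cold and 1.84 to 5.16 TPM in control, and its 95% interval was -0.95 to 0.46. Values of trpm2, a channel opened by ADP-ribose under oxidative stress and known from microglia, ran from 2.79 to 5.59 TPM in cold and 3.19 to 4.45 TPM in control (95% interval -0.32 to 0.46). The channel kinase gene trpm7, which serves magnesium uptake, had 12.9, 13.1, 14.1 and 13.7 TPM in cold and 13.9, 13.6, 14.8 and 14.4 TPM in control. These libraries were tightly grouped, with a 95% interval of the log2 change from -0.22 to 0.072 (limma adjusted p = 0.406). The identifier trpc4ap, also taken in by its name, encodes a TRPC4-associated protein and no channel, and had 22.3, 23.2, 25.1 and 25.1 TPM in cold and 25.5, 25.6, 25.2 and 24.5 TPM in control (95% interval -0.21 to 0.062).

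Of the mechanically gated Piezo channels piezo1 fell and piezo2 was not called (1 of 2 lower and 0 higher, against 23.6% and 13.0% of all genes). In the cold libraries piezo1, which in mammals senses flow in blood vessels, had 2.48, 2.55, 2.60 and 2.80 TPM, against 3.12, 3.54, 4.36 and 4.46 TPM in the control libraries. The cold libraries were tightly grouped below a wider control group (log2 change -0.42 ± 0.12, limma adjusted p = 0.0232). This call was lost without cold 1 (0.0532), cold 3 (0.0508), control 3 (0.0668) and control 4 (0.0573) and without cold 2 and control 4 together (0.0923), all as limma adjusted p. Sums of the endothelial markers were 84.3 to 103 TPM in cold and 99.3 to 148 TPM in control, and their part in the result was not tested. For piezo2, the touch receptor of sensory neurons, values ran from 0.930 to 2.09 TPM in cold and 0.808 to 2.32 TPM in control, and the 95% interval of the log2 change was -0.45 to 0.54.

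Neither polycystin member was called (0 of 2, also at an unadjusted p under 0.05). The polycystins pkd1 and pkd2 form a receptor and channel complex of the primary cilium. The pkd2 gene had 9.88, 9.74, 10.4 and 11.4 TPM in the cold libraries and 10.8, 10.7, 11.1 and 14.8 TPM in the control libraries. Control 4 stood above the other 7 libraries, and the 95% interval of the log2 change was -0.42 to 0.077 (limma adjusted p = 0.253). Values of pkd1 ran from 2.55 to 3.56 TPM in cold and 2.89 to 4.10 TPM in control (95% interval -0.42 to 0.16).

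Of 6 CLC members 2 fell and 0 rose (23.6% and 13.0% of all genes). The gene clcn2 encodes a chloride channel of the plasma membrane, found in mammalian neurons and glia. Its cold libraries had 28.8, 23.1, 28.4 and 28.3 TPM, against 41.0, 39.9, 45.8 and 45.8 TPM in the control libraries. Cold 2 was lowest, and the other 3 cold libraries lay close together, well below control. The mean was 27.1 ± 2.70 TPM in cold and 43.1 ± 3.12 TPM in control (SD, n = 4 each), a log2 change of -0.65 ± 0.086, with the lowest p of the members (limma adjusted p = 5.98e-04). The row named clcn2a in the RefSeq table (LOC100690240) had 25.4 ± 1.06 TPM in cold and 28.3 ± 2.26 TPM in control. It was not called (limma adjusted p = 0.125). Summed with that row, clcn2 had a log2 change of -0.43 and stayed called. For clcn6, a chloride and proton exchanger of late endosomes, the values were 28.6, 27.8, 32.3 and 33.8 TPM in cold and 42.7, 37.5, 45.5 and 38.3 TPM in control. Again the groups did not overlap (log2 change -0.41 ± 0.088, limma adjusted p = 0.00663).

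The other 4 CLC genes encode endosomal and lysosomal exchangers and were not called. The most abundant, clcn3, had 51.0, 58.2, 60.6 and 63.5 TPM in cold and 65.0, 53.8, 52.3 and 58.4 TPM in control, with overlap (95% interval of the log2 change -0.18 to 0.23). Levels of clcn4 were 51.2, 50.8, 50.2 and 49.0 TPM in the cold libraries, above all control libraries (44.5, 46.0, 45 and 48.2 TPM). That difference was small (log2 change 0.13 ± 0.048, limma adjusted p = 0.0634) and passed after median-of-ratios scaling (log2 change 0.22, limma adjusted p = 0.0102). The intervals were -0.19 to 0.13 for clcn5 (13.1 ± 0.946 TPM in cold and 13.4 ± 0.342 TPM in control) and -0.14 to 0.21 for the lysosomal clcn7 (31.1 ± 2.87 TPM in cold and 30.3 ± 1.57 TPM in control). In the summed TPM of the 6 CLC members the share of clcn2 averaged 12.9% in cold and 18.6% in control, and that of clcn3 averaged 27.7% in cold and 24.8% in control.

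Of 6 anoctamins, a family of calcium-activated chloride channels and lipid scramblases, 0 rose and 1 fell (13.0% and 23.6% of all genes). The member that fell was ano3. It is a neuronal member and was the most abundant, with 48.3, 55.8, 56.5 and 54.4 TPM in the cold libraries against 67.6, 60.2, 62.6 and 60.8 TPM in the control libraries. Cold 1 was lowest, and the gap between cold 3 and control 2 was narrow (log2 change -0.22 ± 0.066, limma adjusted p = 0.0275). The call was lost without cold 1 (0.0571), control 1 (0.0716) and control 3 (0.0597), after median-of-ratios scaling (0.132) and without cold 2 and control 4 together (0.0523), as limma adjusted p. For the scramblase gene ano6 values ran from 3.17 to 5.26 TPM in cold and 4.52 to 6.47 TPM in control. It was not called (log2 change -0.39 ± 0.15, limma adjusted p = 0.0693), and control 1, far below the other 3 control libraries, made the groups overlap; without control 1 it passed (limma adjusted p = 0.0334), as it did without cold 4 (0.0392). The remaining ano4, ano5, ano8 and ano10 had log2 changes of -0.23 ± 0.13, 0.060 ± 0.098, 0.093 ± 0.11 and -0.25 ± 0.10, with limma adjusted p of 0.220, 0.668, 0.550 and 0.0823. Of 6 further anoctamin rows, which carry numeric identifiers, limma called 2 lower, among them ano1b (described further on), and 0 higher.

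The sodium pump subunits were among the most abundant members, and limma called 0 of the 3 as deposited (0 at an unadjusted p under 0.05). Beta subunits carry the pump's catalytic subunit to the membrane, and the rows of catalytic subunits carry numeric identifiers. The highest of all members was atp1b4, a pump subunit in fish known in placental mammals as a protein of the nuclear membrane. It had 876, 576, 888 and 862 TPM in the cold libraries and 897, 927, 1049.8 and 929 TPM in the control libraries. Every cold library lay below every control library, yet cold 2 was far below the other 3, and the log2 change of -0.27 ± 0.14 did not pass (limma adjusted p = 0.155). Without cold 2 the log2 change was -0.12 (limma adjusted p = 0.187). For atp1b3 the means were 446 ± 30.4 TPM in cold and 469 ± 8.07 TPM in control, and for atp1b2, known in mammals from glia, 175 ± 24.2 TPM in cold and 202 ± 9.60 TPM in control (SD, n = 4 each), with 95% intervals of the log2 change of -0.20 to 0.050 and -0.44 to 0.0028. Summed with its LOC copy, atp1b2 was called lower (limma adjusted p = 0.0335). Of 6 further pump rows, which carry numeric identifiers, limma called 1 lower and 0 higher (23.6% and 13.0% of all genes). That row, atp1b3b (LOC100695267), named after its value was seen, had 227 TPM in cold and 267 TPM in control (limma adjusted p = 0.0345). Its call held in 4 of the 8 omissions of a single library and was lost after median-of-ratios scaling (0.188).

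**Figure D3:**
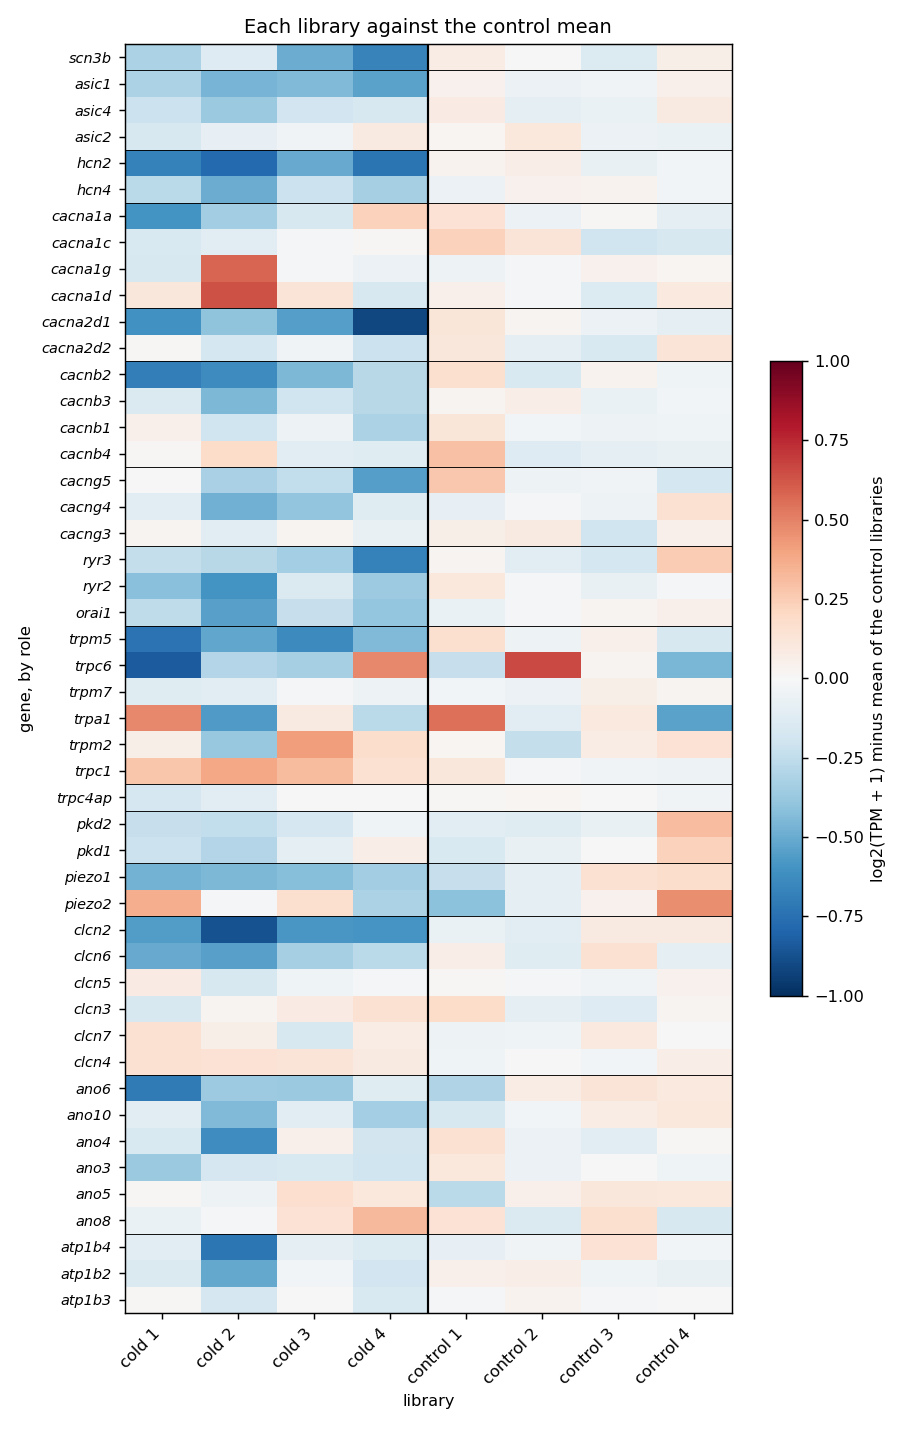
Log2(TPM + 1) of 48 of the 49 members (rows, grouped by role) in each library (columns, cold left of control) minus the mean of the 4 control libraries; blue is below that mean and red above, and the scale ends at 1 in each direction. The rows of hcn2, clcn2, cacna2d1 and trpm5 are blue in all 4 cold libraries and trpc1 is red in them, while cacna1d and cacna1g are most strongly red in cold 2.

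Cold 2 was the lowest library of its group for 22 of 49 members and the highest for 6, whereas cold 3 was lowest for 1. In the control group each library was lowest for 10 to 14 members. The summed TPM of all members was 2505 in cold 2 and 2924 to 3018 in the other cold libraries, against 3176 to 3273 in the control libraries. The sum of the 3 sodium pump beta members was 1135 to 1557 TPM in cold and 1570.1 to 1709 TPM in control. With the pump rows of numeric identifiers added, 9 in all, the sums overlapped. They were 3093 to 3802 TPM in cold and 3761 to 3874 TPM in control. Members with the widest spread within groups were trpc6 (coefficient of variation 55.9% in cold and 47.6% in control), trpa1 (36.3% in cold and 35.6% in control) and piezo2 (32.2% in cold and 43.4% in control), all of low level. None of the 5 members above 100 TPM in both groups was called by limma (0, and 0 at an unadjusted p under 0.05), and the called members had control means from 1.57 to 97.2 TPM.

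Tilapia carries further genes of these families, which the deposited lists give only by a LOC identifier. Of these, 70 rows have a symbol of the same pattern in the RefSeq gene table, 56 of them at a group mean of 1 TPM or more, and together with the members they make 105 genes. Among the 56, limma called 39.3%, against 36.7% of all genes: 20 fell (35.7%, against 23.6% of all genes) and 2 rose (3.57%, against 13.0%). After median-of-ratios scaling 11 fell (19.6%, near the 17.3% of all genes) and 3 rose (5.36%, against 18.2%). Among the 20 falls is that of trpm1b (LOC100701437), which passed the 1 TPM filter through the control group alone. It had 0.511 ± 0.0965 TPM in cold and 1.25 ± 0.224 TPM in control. The 56 rows had a median log2 change of -0.24. They hold the sodium channel pores. The row named scn1lab there (LOC100698390), a brain sodium channel pore, fell (124 ± 12 TPM in cold and 164 ± 13.3 TPM in control, log2 change -0.40 ± 0.083, limma adjusted p = 0.00530). The most abundant pore, scn8aa (LOC100703813), fell as well (181 ± 15.1 TPM in cold and 214 ± 14.6 TPM in control, -0.24 ± 0.073, limma adjusted p = 0.0292), with its call lost in 5 of the 8 omissions of a single library (limma adjusted p up to 0.0726) and after median-of-ratios scaling (0.112). Its paralogue scn8ab (LOC100704230) measured 47.1 ± 6.03 TPM in cold and 39.0 ± 1.40 TPM in control and was not called as deposited (limma adjusted p = 0.0540), but was called higher after median-of-ratios scaling (log2 change 0.35, limma adjusted p = 0.0112). Not called as deposited either was scn1laa (LOC100701645; 1.03 ± 0.104 TPM in cold and 1.89 ± 1.26 TPM in control, limma adjusted p = 0.220). The difference between scn8aa and scn8ab was not tested. The beta subunit scn2b (LOC100698560) fell (125 ± 9.36 TPM in cold and 146 ± 7.13 TPM in control, limma adjusted p = 0.0233), with its call lost in 4 of the 8 omissions (limma adjusted p up to 0.0625) and after median-of-ratios scaling (0.135).

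Other relatives were picked after their values were seen, because limma called them under all alternatives run. The chloride channel gene ano1b (LOC100704804) had the largest change of all 105 genes (2.79 ± 0.603 TPM in cold and 7.81 ± 0.875 TPM in control, log2 change -1.23 ± 0.14, limma adjusted p = 2.78e-04). In its 4 cold libraries it had 3.07, 1.95, 3.34 and 2.79 TPM, against 7.21, 7.65, 7.29 and 9.09 TPM in the control libraries, far apart. Falls were also those of the T-type calcium channel pore cacna1ia (LOC100696380; 8.21 ± 1.31 TPM in cold and 12.5 ± 1.3 TPM in control), the calcium channel beta subunit cacnb3b (LOC100705687; 18.3 ± 3.35 TPM in cold and 28.5 ± 1.12 TPM in control), the ryanodine receptor ryr1b (LOC100709030; 17.1 ± 0.915 TPM in cold and 21.1 ± 0.856 TPM in control) and the acid-sensing asic1c (LOC100699440; 22.5 ± 2.08 TPM in cold and 31.2 ± 4.74 TPM in control). The 2 rises were those of trpc6a (LOC100706122; 5.18 ± 0.819 TPM in cold and 3.49 ± 0.204 TPM in control) and the gamma subunit cacng7b (LOC100690578; 20.3 ± 1.11 TPM in cold and 16.0 ± 1.43 TPM in control), all SD with n = 4 each and with limma adjusted p between 0.00341 and 0.0140. None of the catalytic pump rows was called by limma: atp1a3a (LOC100707930) measured 730.3 ± 72.7 TPM in cold and 796 ± 32.0 TPM in control and atp1a3b (LOC100712391) 469 ± 95 TPM in cold and 405 ± 16.2 TPM in control, with adjusted p of 0.208 and 0.337 (0 of 2, also at an unadjusted p under 0.05).

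Partner genes that handle the same ions were called lower in 28.6% (sodium), 19.2% (calcium) and 11.8% (chloride) of those tested, against 23.6% of all genes, and higher in 0%, 3.85% and 17.6%, against 13.0%. With so few genes in each list, nothing is read from these shares. Of 14 tested partners of sodium channels and pumps 0 rose and 4 fell (0 and 2 after median-of-ratios scaling): the sodium leak channel gene nalcn (40.4 TPM in cold against 53.9 TPM in control, limma adjusted p = 0.00116), the spectrin gene sptbn4, which anchors sodium channels at the axon start (27.4 TPM in cold against 41.2 TPM in control, limma adjusted p = 0.00517), the ubiquitin ligase gene nedd4l (36.8 TPM in cold against 43.3 TPM in control) and, named after its value was seen, cntnap2 (30.6 TPM in cold against 36.6 TPM in control). Of 26 calcium handling genes 1 rose and 5 fell (1 and 3 after that scaling). The rise was that of slc8b1, which encodes the mitochondrial sodium and calcium exchanger (43.2 TPM in cold against 27.5 TPM in control, limma adjusted p = 0.00531). The falls of lowest p were those of smdt1, a regulator of the mitochondrial calcium uniporter (46.7 TPM in cold against 67.4 TPM in control, limma adjusted p = 0.00247), and itpr2, an inositol trisphosphate receptor gene (4.46 TPM in cold against 8.11 TPM in control, limma adjusted p = 0.00280). The other falls, named after their values were seen, were those of atp2b1, mcu and atp2a3. Of 17 chloride handling genes 3 rose and 2 fell (3 and 1 after that scaling). The rises were those of slc12a9 (26.1 TPM in cold against 12 TPM in control, limma adjusted p = 7.75e-05) and of lrrc8d (14.8 TPM in cold against 8.20 TPM in control, limma adjusted p = 2.73e-04) and lrrc8a (22.0 TPM in cold against 17.1 TPM in control, limma adjusted p = 0.00454), which encode subunits of the volume-regulated anion channel. The falls, named after their values were seen, were those of the transporter kinase gene stk39 and of clic1. The calls of nedd4l, cntnap2, mcu, atp2a3 and clic1 were lost in 5, 6, 3, 6 and 6 of the 8 omissions of a single library (limma adjusted p up to 0.0663, 0.120, 0.0631, 0.0770 and 0.0737).

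**Figure D4:**
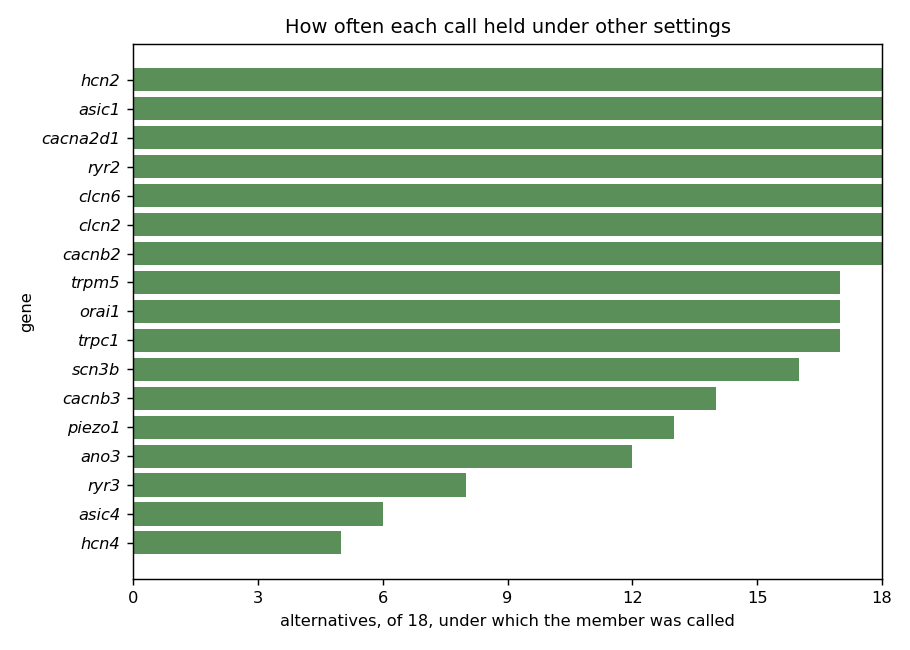
Number of the 18 alternative settings (x axis) under which each of the 17 called members (y axis) was again called by limma at an adjusted p under 0.05. Bars reach 18 for asic1, cacna2d1, cacnb2, clcn2, clcn6, hcn2 and ryr2, and are shortest for hcn4 (5), asic4 (6) and ryr3 (8).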

How the data were processed

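Polyadenylated RNA of the midbrain was sequenced in 8 libraries, 4 cold and 4 control, with groups and replicate numbers taken from the sample titles. Per the labels' protocols, TRIzol extraction was followed by poly(dT) capture and an Illumina TruSeq library kit. Per the submitters' processing notes HISAT2 was used. The sources used here do not name the counting program, genome build, annotation or treatment of strand and multiple hits. The deposited values are TPM per gene, 1 headerless list of 29533 rows per library. The unit was read from the values, each list summing to 1000000. TPM keeps no depth, so no counting error is given, and reads of near-identical copies may have been divided between them.

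Over the 18863 genes reaching a mean of 1 TPM in the cold or the control group, log2(TPM + 1) was compared by limma 3.58.1 (R 4.3.3), trend on, without covariates. Two-sided p-values were adjusted by Benjamini-Hochberg over all 18863, with calls at an adjusted p under 0.05. The script was checked on simulated data. The two-sided exact permutation test used the difference of mean log2(TPM + 1). The counts cover all 49 members, and 1 of them is not reported here by itself. The members and lists were chosen with earlier results of these data known. The planned rule gave values in every library for up to 3 called members of lowest p per direction and the most abundant member of each role group, and named up to 3 called genes per partner list. Values in every library of trpa1, trpm7 and clcn4 were added after they were seen. List genes were matched by symbol, with an optional final a or b. Genes listed by LOC identifier were named through the RefSeq table of assembly O_niloticus_UMD_NMBU. Alternatives covered the pseudocount, filter, scaling, variance moderation, replicate block, left-out libraries and summed copies.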

Additional observations from a re-analysis of the deposited data

Results flagged for a closer look

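In 8 of the 98 groups of 4 libraries (49 members in cold and in control) 1 library stood so far from the other 3 that its gap exceeded Dixon's 95% critical value; chance alone gives about 1 in 20. In the cold group all 3 cases came from cold 2: atp1b4 had 576 TPM in cold 2, against 862 to 888 TPM in the other 3, clcn2 had 23.1 TPM in cold 2, against 28.3 to 28.8 TPM in the other 3, and cacna1g had 15.6 TPM in cold 2, against 8.93 to 9.98 TPM in the other 3. In the control group control 1 stood apart for ano6 (4.52 TPM in control 1, against 6.20 to 6.47 TPM in the other 3), cacnb1 (94.1 TPM in control 1, against 83.6 to 84.8 TPM in the other 3) and cacnb4 (52.7 TPM in control 1, against 39.1 to 40.8 TPM in the other 3). For cacng3 the value was 22.7 TPM in control 3, against 27.2 to 28.0 TPM in the other 3, and for pkd2 it was 14.8 TPM in control 4, against 10.7 to 11.1 TPM in the other 3. Of these genes limma called clcn2 alone, and clcn2 stayed called without cold 2 (log2 change -0.58, limma adjusted p = 7.95e-04).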

How the results depend on the processing

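The counts of called members (1 higher, 16 lower) moved beyond 1.5 times under 2 alternatives: median-of-ratios scaling gave 2 higher and 10 lower, with 11 of the 17 calls kept, and leaving out control 4 and cold 2 together gave 0 higher and 9 lower. Leaving out 1 library at a time gave 1 higher each time and 11 to 15 lower. Adding the LOC rows raised the number of genes counted to 105. The stability of single values was counted over 25 members, the 17 called and others that were the most abundant of their role group. Over these and 18 alternatives, 450 values in all, 387 kept direction and side of the threshold, 55 lost a call, 2 gained one and 6 changed sign, all of the last in members not called. These were clcn3 (-0.018 to 0.087 over the omissions of a single library), cacng3 (0.057 after median-of-ratios scaling, 0.012 without control 4 and cold 2) and trpc4ap (0.014 after that scaling). Members outside the 25, none of them called, changed sign as well. Examples over the alternatives are cacna1d (-0.18 to 0.29), trpc6 (-0.49 to 0.19) and trpa1 (-0.25 to 0.12). The -0.18 of cacna1d is that of its sum with another row, cacna1da. In the same alternative trpc6 was summed with trpc6a, which by itself was called higher. Over the omissions of a single library cacna1d (0.025 to 0.29) and trpc6 (-0.49 to -0.025) kept their sign, and trpa1 did not. After median-of-ratios scaling cacna1d (0.26) and trpc6 (-0.18) kept it too. The cause of the other sign changes was not tested. Replicate numbers did not pair the libraries (correlations of same-numbered deviations from the group means -0.23 to 0.054), and no library correlated best with its own number. With the replicate block 1 member was higher and 12 lower: 11 calls were kept, ano6 and cacng5 were added, and ano3, asic4, cacnb3, hcn4, ryr3 and trpm5 were not called. No 2 members differed only by a final a or b, so that planned summing changed nothing; summing LOC copies with their member was chosen after seeing the data and gave 1 higher and 17 lower, without hcn4 and with atp1b2 and cacna2d2. Absolute depth is unknown, which leaves the precision of the low members (trpm5, piezo2, hcn4) resting on the spread between libraries alone.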
